A study of Mus musculus with 2 samples.

Results

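A set of 10 imprinted genes was examined in ATAC-seq peak lists of mouse ileal organoids (enteroids), namely H19, Igf2, Cdkn1c, Peg3, Plagl1, Meg3, Dlk1, Grb10, Mest and Peg10. They are 10 of 26225 annotated genes of the same biotypes. They were picked by name, not by a measured value, although earlier results of these data were known. A peak within 1 kb of any annotated start site of a gene was called a start-site peak and was assigned to the promoter or promoters it lay near, with start sites closer than 500 bp joined into 1 promoter. All other peaks of the gene body and of 20 kb on each side were called distal. By this rule the genes held 52 of 90445 peaks of the control list and 37 of 71282 peaks of the Taf4-inactivated list, and they had 41 annotated promoters.

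The study asked how loss of Taf4, part of the basal transcription complex TFIID, altered chromatin accessibility in the epithelium. Enteroids came from the ileum of 4-month-old mice on a mixed C57Bl6/129sv background, and both cultures were exposed to 1 µM 4-hydroxytamoxifen (4-OHT) for 3 days. The control enteroids were labelled WT and, per the study's methods, carried Taf4 lox/lox without a Cre. The Taf4-inactivated enteroids, labelled KO, carried Taf4 lox/lox::VilCreERT2, in which the Villin promoter drives a tamoxifen-dependent Cre in intestinal epithelial cells. There was 1 library per genotype, so every difference below is between those libraries, without a replicate check and without a p-value. The lists hold no read coverage of the Taf4 exons, and the deletion was therefore not checked against the labels.

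Imprinted genes are expressed mainly from the maternal or the paternal allele, because a control region of the locus is methylated in only 1 of the parental germlines. On the methylated copy, the zinc finger protein ZFP57 binds a methylated hexamer and recruits factors that keep the mark, while CTCF binds the unmethylated copy of some control regions and insulates promoters from enhancers. Many of these genes act on growth before birth and are silenced in most adult tissues, although several are known to mark or restrain stem and progenitor cells. The libraries come from both alleles together, so a peak does not tell which parental copy was open.

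The following stretches, from peaks described below, are printed from the mm9 assembly (NCBIM37), 5′ to 3′ on the strand of the gene. They are parts of these peaks that lie outside annotated exons, chosen to hold the most matches of the marked sequences. The H19 peak and the intronic Grb10 peak were themselves picked among the distal Taf4-inactivated peaks of their gene. They were those with the most CTCF and AP-1 matches, respectively. In the stretch of Peg3, capitals mark the YY1 sequence GCCATNTT on either strand. In the stretches of Mest, Plagl1, the upstream Grb10 promoter and Peg10, they mark the ZFP57 hexamer TGCCGC on either strand.
Peg3 first intron, chr7:6680443-6680682, minus strand: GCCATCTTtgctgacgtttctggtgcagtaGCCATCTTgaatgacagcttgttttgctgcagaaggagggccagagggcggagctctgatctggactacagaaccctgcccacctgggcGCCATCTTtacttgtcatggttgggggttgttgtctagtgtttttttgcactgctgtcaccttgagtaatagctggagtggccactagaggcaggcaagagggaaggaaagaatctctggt
Mest main promoter, chr6:30687849-30688049, plus strand: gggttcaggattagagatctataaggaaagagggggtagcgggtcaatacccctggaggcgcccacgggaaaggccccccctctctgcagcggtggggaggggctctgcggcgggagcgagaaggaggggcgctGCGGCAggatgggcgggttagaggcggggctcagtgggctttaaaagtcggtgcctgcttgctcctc
Plagl1 first promoter, chr10:12810831-12810956, plus strand: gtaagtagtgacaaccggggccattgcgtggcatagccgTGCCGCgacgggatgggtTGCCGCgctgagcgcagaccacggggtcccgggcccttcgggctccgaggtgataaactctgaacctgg
Grb10 upstream promoter, chr11:11936814-11937053, minus strand: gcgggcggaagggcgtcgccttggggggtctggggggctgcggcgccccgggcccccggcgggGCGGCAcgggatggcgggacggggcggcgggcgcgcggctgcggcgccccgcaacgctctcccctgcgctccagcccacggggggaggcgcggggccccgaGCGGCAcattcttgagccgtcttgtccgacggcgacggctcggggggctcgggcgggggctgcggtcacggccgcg
Peg10 promoter, chr6:4697205-4697305, plus strand: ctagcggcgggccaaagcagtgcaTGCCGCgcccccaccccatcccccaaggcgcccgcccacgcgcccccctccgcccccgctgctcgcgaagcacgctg
In the stretch upstream of H19, capitals mark the CTCF core GGNGGCAG and the hexamer TGCCGC, and in the intronic stretch of Grb10 they mark the AP-1 sequence TGACTCA.
H19 upstream region, chr7:149766181-149766420, minus strand: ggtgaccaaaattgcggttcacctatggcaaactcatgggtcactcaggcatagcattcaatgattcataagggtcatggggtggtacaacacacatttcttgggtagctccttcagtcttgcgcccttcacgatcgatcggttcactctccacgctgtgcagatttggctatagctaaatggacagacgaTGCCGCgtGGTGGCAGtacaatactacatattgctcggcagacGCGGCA
Grb10 intron, chr11:11839714-11839953, minus strand: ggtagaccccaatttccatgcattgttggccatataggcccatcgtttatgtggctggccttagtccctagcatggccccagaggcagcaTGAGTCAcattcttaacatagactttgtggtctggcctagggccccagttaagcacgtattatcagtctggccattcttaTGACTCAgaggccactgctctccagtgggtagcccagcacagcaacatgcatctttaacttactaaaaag

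The hexamer occurred in the 5 stretches shown for control regions or promoters other than Peg3. YY1 matches clustered in the stretch from the first intron of Peg3. The stretches were chosen for such matches, so their presence and clustering there are no result. The matches are of letters only and do not show that a factor was bound.

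The lists give no library totals. From the deposited fold and p of each peak, background levels of 12.1 reads (control) and 7.35 reads (after inactivation) were estimated, and the control library came out 1.65 times deeper. The fold of a peak over the background of its own library is therefore not on a common scale, with a list median of 2.03 in the control and 2.45 after inactivation. Each peak is described by the percentile of its fold within its own list, a value that also moves with the number and strength of the other peaks listed. A percentile of 90 means that 90% of the peaks of that library had a lower fold. The estimated pileups of the members' peaks lay between 24.7 and 59.8 reads in the control. In the Taf4-inactivated library they lay between 17.4 and 55.9 reads. A pileup is a depth of extended reads per base, estimated from averages over the peak. It is not the number of reads in the peak, which also depends on its width. Reads given for a peak below are such pileups. Their intervals are exact 95% Poisson intervals that treat the pileup as 1 count, and cover counting error only. Defining markers of the epithelium held start-site peaks in 14 of 15 cases in the control and 15 of 15 after inactivation. Of the mesenchymal markers 3 of 8 held one in each list, of the endothelial markers 2 of 4 and 1 of 4, and of the blood markers 1 of 5 in each. The mesenchymal markers Col1a2 and Pdgfra, the endothelial marker Kdr and the blood marker Itgam each had a percentile more than 20 points lower after inactivation. The mesenchymal marker Col1a1 went from 10.7 to 18.1. Of the 14 epithelial markers with peaks in both lists, 8 were lower by fold, with a median difference of −5.61 points. By fold, 0 of these were lower and 1 was higher by at least 20 points. Ranked by p, 3 were lower and 1 was higher by that much. A peak near such a marker does not show that mesenchymal, endothelial or blood cells were present in these crypt-derived cultures. Any part of such cells in the results below was not tested.

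Most of the imprinted genes had a start-site peak in both libraries. The rank by fold of the strongest such peak was lower after Taf4 inactivation, though it did not always lie at the same promoter. A start-site peak was found at 9 of the 10 genes in the control list and at 9 of 10 in the Taf4-inactivated list, against 65.2% and 62.2% of all genes. The members had a median of 9 annotated start sites, against 2 over all genes, and so had more places at which a peak could be counted. Peg10 had a start-site peak only in the control, a pattern of 6.17% of all genes, and H19 only after inactivation, a pattern of 3.17% of all genes. The other 8 genes had start-site peaks in both lists.

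In the control, the strongest start-site peak of each gene ranked in the order Plagl1 (percentile 94.2), Mest (89.3), Grb10 (86.8), Peg10 (77.2), Igf2 (75.9), Dlk1 (72.0), Peg3 (67.3), Meg3 (50.1) and Cdkn1c (9.31). After inactivation the order was Plagl1 (percentile 87.6), Grb10 (73.4), Mest (45.7), Peg3 (31.6), Meg3 (27.1), Igf2 (26.0), Dlk1 (25.8), H19 (1.43) and Cdkn1c (0.169). Without replicates the spread around a percentile is unknown, and neighbours in either order, such as Meg3, Igf2 and Dlk1 after inactivation, could not be told apart. Plagl1 led both lists, and 3 of the control percentiles (Plagl1, Mest and Grb10) were above the median of all genes with a start-site peak, which was 85.6. After inactivation only Plagl1 was above that median, which was then 80.5.

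**Figure D1:**
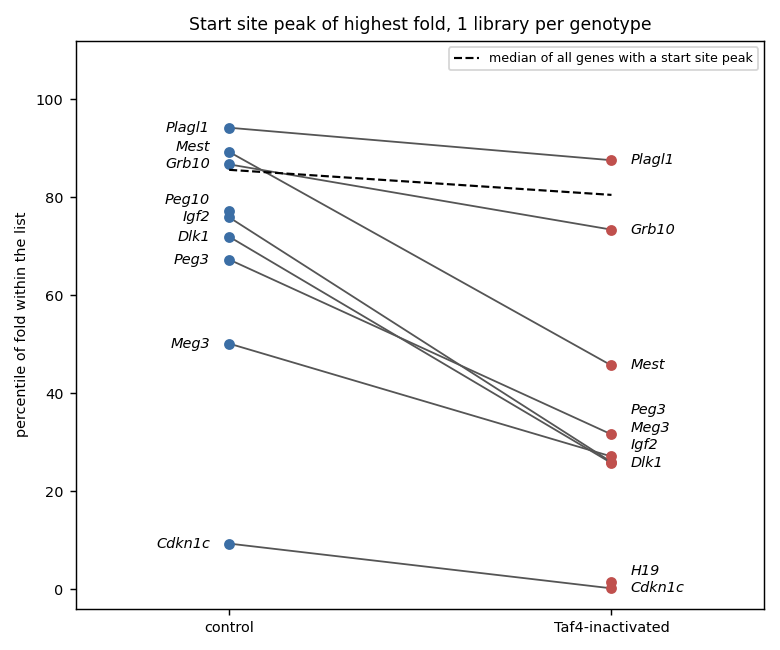
Percentile of fold, within its own list, of the strongest start-site peak of each imprinted gene (vertical axis, 0 to 100) in the control and the Taf4-inactivated list, 1 library each; lines join the values of 1 gene and the dashed line is the median of all genes with a start-site peak. All 8 joined genes slope down, from −6.64 points at Plagl1 to −49.98 points at Igf2. At Igf2, Dlk1 and Meg3 the joined points are of peaks that do not overlap. Peg10 has a point only on the left and H19 only on the right. Ranked by width, the median difference of the members is 8.38 points instead.

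The rank by fold was lower after inactivation at 8 of 8 genes with peaks in both lists, where 65.9% of all such genes were lower. It was lower by at least 20 points at 5 of 8 genes, where 12.8% of all genes were. The difference, inactivated minus control, was −49.98 points at Igf2, −46.2 at Dlk1, −43.6 at Mest, −35.7 at Peg3, −23.1 at Meg3, −13.3 at Grb10, −9.14 at Cdkn1c and −6.64 at Plagl1. At Igf2, Dlk1 and Meg3 the strongest peaks of the lists lay at different promoters and did not overlap. For the pair of longest overlap, 7 of 8 genes were lower. That pair differed by 20.8 points at Igf2, −21.9 at Dlk1 and −28.4 at Meg3. With a start-site distance of 500 bp, 7 of 8 genes were lower, and Igf2 was higher by 20.8 points. With transcripts of the gene's biotype only, the difference at Meg3 was −3.89 points. The members' median was −29.4 points, or −18.2 points at 500 bp, and over all 15483 genes with peaks in both lists it was −2.84 points, with quartiles of −10.9 and 2.40. The fold itself was higher after inactivation at 95.9% of all these genes and at 5 of the 8 members. It went from 2.83 to 3.52 at Plagl1, 2.45 to 2.91 at Grb10, 2.03 to 2.23 at Meg3, 2.15 to 2.26 at Peg3 and 2.19 to 2.22 at Dlk1. It went from 2.24 to 2.22 at Igf2, 2.54 to 2.40 at Mest and 1.812 to 1.809 at Cdkn1c. The lower percentiles thus describe the members relative to the other peaks of each list, and not a lower fold at every gene.

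The size of a rank difference varied with the rank in the control, so each of the 8 members was also set beside the genes of its own control decile. In decile 8, which held Igf2 and Dlk1, the median difference was −6.82 points and 26.0% of genes were lower by at least 20 points. In decile 9, which held Mest and Grb10, the median was −7.26 points and the share 21.5%. In decile 7, which held Peg3, they were −2.49 points and 25.8%, and in decile 6, which held Meg3, 1.07 points and 22.9%. In decile 10, which held Plagl1, they were −3.14 points and 4.91%. Cdkn1c belonged to decile 1, in which the median was 15.98 points and no gene could be lower by 20 points. All 8 members thus lay below the median of their decile. At Igf2, Dlk1, Mest, Peg3 and Meg3, the difference was of at least 20 points downward. At Grb10, Cdkn1c and Plagl1 it was under 20 points.

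The direction also depended on which property of the peak was ranked. By the p of the peak, 8 of 8 genes were again lower, against 68.1% of all genes, with a median of −31.3 points against −2.75 over all genes. By width the members' median was 8.38 points, in the other direction, and 2 of 8 genes were lower. The share and median by width over all genes are not given here, so these values are not shown to be particular to the members. Among the 11 pairs of start-site peaks that overlapped by 1 base or more, 10 were of lower rank by fold after inactivation, against 64.4% of all pairs, and their median was −28.4 points against −2.86 over all pairs. The pair differences ran from −60.7 to 20.8 points, and both extremes lay at Igf2. Some pairs shared only part of their length, such as 251 bp of 625 bp and 2399 bp for the pair at −60.7 points.

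**Figure D2:**
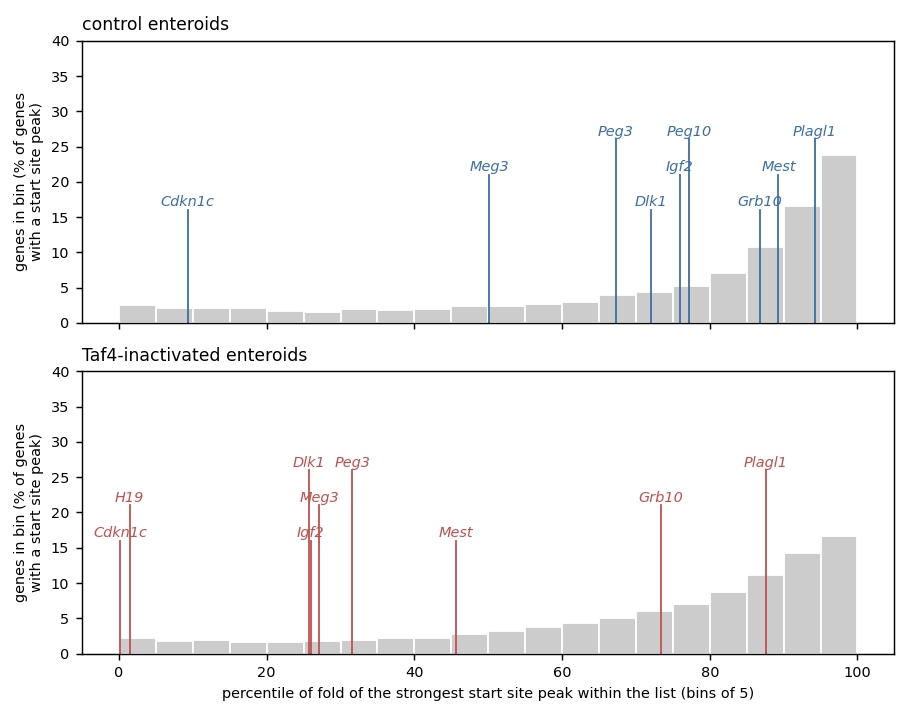
Share of genes with a start-site peak (vertical axis, percent of genes) by the percentile of fold of their strongest start-site peak (horizontal axis, bins of 5), above for the control and below for the Taf4-inactivated list; coloured lines mark the imprinted genes at their own percentile, and line height carries no value. Most genes lie in the bins on the right, with medians of 85.6 and 80.5, and after inactivation 6 of the 9 marked genes lie below a percentile of 40.

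Igf2 encodes a growth factor that acts through the IGF1 receptor and is expressed from the paternal copy, and H19 is the maternally expressed noncoding RNA that shares its enhancers. At Igf2 the most upstream promoter and the internal promoters differed in opposite directions. Near promoter 1 the control peak (chr7:149853533-149854157) lay 812 bp upstream of the start site at percentile 75.9, with an estimated 39.2 reads (27.9 to 53.5), and the overlapping peak after inactivation (chr7:149851385-149853783) covered the start site at percentile 15.3. That second peak was 2399 bp wide against 625 bp, and the pair shared 251 bp. At the CpG-rich promoters 4 and 5 the peak stood at percentile 5.13 in the control (chr7:149845133-149846214) and at 26.0 after inactivation (chr7:149844758-149845532). The control peak also reached promoter 3, which had no peak within 1 kb after inactivation, and promoters 2 and 6 had none in either list. The negative rank difference of Igf2 thus rested on the peak 812 bp from promoter 1, and with a start-site distance of 500 bp the difference was 20.8 points.

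Igf2 had 6 distal peaks in the control, of which 4 had no partner, meaning no peak of the other list that overlapped it by 1 base or more. After inactivation it had 3 distal peaks, of which 1 had no partner. The strongest control distal peak (chr7:149826642-149826841, percentile 50.3) lay 16530 bp downstream of promoter 6 and had no partner. The strongest after inactivation (chr7:149832983-149833244, percentile 35.3) was intergenic, 10127 bp downstream, and overlapped a control peak at percentile 45.7. A peak over Ins2, the neighbouring insulin gene, was in both lists at percentiles 6.65 and 8.70. All of these distal peaks were of middle or low rank.

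H19 was the only member without a start-site peak in the control. Its promoter 1, shared by 3 of the 5 annotated transcripts, had no peak in either list. Internal promoter 2 had a peak after inactivation only (chr7:149762798-149762997), at percentile 1.43, which also lay near the start of the microRNA gene Mir675 within H19. The estimated pileup of this peak was 25.1 reads (16.2 to 37.0) over a background of 12.5, and the peak was near the weakest of its list. Of the Taf4-inactivated peaks in that decile of fold, 51.6% had no control partner.

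The stretch shown upstream of H19 came from a peak that was present only after inactivation (chr7:149766181-149766738), starting 2133 bp upstream of promoter 1 and at percentile 0.747. The control region of the Igf2 and H19 locus is known to lie in this intergenic stretch and to bind CTCF. The peak held 2 CTCF cores and 2 ZFP57 hexamers, where 24.6% and 12.9% of peaks of like width held at least 1. It was picked for its CTCF count, so the CTCF share is no comparison for it. Its CpG ratio was 0.63. The peak had an estimated pileup of 24.7 reads (15.9 to 36.5) over a background of 12.6, so it was close to the limit of calling. A second upstream peak, 15665 bp from promoter 1 in the control, was in both lists and stood at percentile 19.9 in the control (chr7:149779713-149780074) and at 58.4 after inactivation (chr7:149779628-149780025). It was the strongest distal peak of H19 in each list, and its rank was higher after inactivation.

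Dlk1 encodes a transmembrane ligand-like protein that acts on Notch signalling and is expressed from the paternal copy, and Meg3 is the maternally expressed long noncoding RNA of the same domain on chromosome 12. At Dlk1, 1 peak near promoters 1, 2 and 3 was in both lists, at percentile 47.6 in the control (chr12:110691750-110692076) and 25.8 after inactivation (chr12:110691059-110691985). The strongest control peak of Dlk1 lay at promoter 4, over a coding exon (chr12:110697991-110698400, percentile 72.0), and had no partner. Comparing the overlapping pair alone gave a difference of −21.9 points in place of −46.2. Its distal peaks numbered 3 in the control, 2 of them without a partner, and 2 after inactivation, 1 of them without. The strongest of these stood at percentile 35.3 in the control, 13260 bp downstream (chr12:110711313-110712533), and at 3.18 after inactivation, upstream of the gene (chr12:110674412-110674654).

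At Meg3 the annotated 5′ promoter had no peak in either list, and it was the only one of the 41 promoters with TATAAA in the 50 bp upstream, a sequence found there at 2.20% of 46850 promoters. Promoter 6, inside the gene, had a peak in both lists, at percentile 50.1 in the control (chr12:110785950-110787609) and 21.7 after inactivation (chr12:110786542-110787544). These peaks held 5 and 4 CTCF cores. At least 1 was held by 59.8% and 40.4% of peaks of like width. Promoter 2 had a peak only in the control (chr12:110781025-110781250, percentile 31.0), and promoter 5 only after inactivation (chr12:110784910-110785120, percentile 27.1). Promoters 3 and 4 had none. The rank difference of −23.1 points at Meg3 thus sets promoter 6 in the control beside promoter 5 after inactivation. The overlapping pair at promoter 6 differed by −28.4 points. Accessibility at Meg3 was thus recorded at internal start sites, and the sites with a peak differed between the libraries. A distal peak over a Meg3 exon at the start of the microRNA gene Mir770 had a percentile of 60.2 in the control (chr12:110800909-110802350) and 11.1 after inactivation (chr12:110801167-110802126), and was the strongest distal peak of Meg3 in each list.

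Cdkn1c encodes p57, an inhibitor of cyclin-dependent kinases that is expressed from the maternal copy and restrains proliferation. Its single promoter is CpG-rich and lay under a broad, shallow peak in each list, 1919 bp wide at percentile 9.31 in the control (chr7:150645122-150647040) and 2077 bp wide at percentile 0.169 after inactivation (chr7:150645408-150647484). The estimated pileup was 56.2 reads (42.5 to 72.9) over a background of 30.5 in the control and 34.2 reads (23.7 to 47.7) over 18.4 after inactivation. These backgrounds were well above the members' medians of 15.0 and 9.60 reads, so the pileup at Cdkn1c was among the larger ones while its fold was the lowest of the start-site peaks in the control list other than promoters 3 to 5 of Igf2. By the p of the peak, Cdkn1c was at percentile 71.4 in the control and 16.4 after inactivation. The distal peak of highest fold lay 14959 bp downstream in the control (chr7:150631317-150631996, percentile 35.6). After inactivation it was a 2830 bp peak over the start of the neighbouring transporter gene Slc22a18 (chr7:150659384-150662213, percentile 44.9), which overlapped control peaks at percentiles 8.41 and 12.1.

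Grb10 encodes an adaptor that dampens insulin and IGF signalling and is expressed from the maternal copy in most tissues. Its promoters 2 and 4 held peaks in both lists. The upstream peak, part of which is shown above, stood at percentile 86.8 in the control (chr11:11936814-11937903) and 73.4 after inactivation (chr11:11936784-11937664). In the control it lay within 1 kb of promoters 1 and 2, and after inactivation of promoter 2 alone. The peak at promoter 4 stood at 85.5 (chr11:11925740-11926968) and 56.8 (chr11:11925622-11926675). Each of these 4 peaks held 4 ZFP57 hexamers, and their CpG ratios lay between 0.946 and 1.08. The other 5 promoters of Grb10, numbers 3 and 5 to 8, had no peak in either list.

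The distal peaks of Grb10 did not overlap between the lists. The control had 2, both in introns, at percentile 81.4 (chr11:11863550-11863830) and 37.9 (chr11:11872660-11872861). The Taf4-inactivated list had 5, namely 4 in introns and 1 in the intergenic stretch downstream. Their percentiles were 85.7 for the downstream peak (chr11:11828369-11828956) and 76.7 (chr11:11839714-11839961), 74.8 (chr11:11842558-11842854), 78.5 (chr11:11862044-11862280) and 83.1 (chr11:11873466-11873694) for the intronic ones. Each had an estimated pileup between 24.4 and 28.7 reads over a background of 7.52 to 7.70. Of 1477 genes whose length was within 25% of that of Grb10, 11.6% had at least 5 distal peaks that were in the Taf4-inactivated list only. The intronic peak shown in part above was picked as the one of the 5 with the most AP-1 sequences. It held 2, the downstream peak held 1 and the other intronic peaks held none. At least 1 was held by 11.2% of peaks as wide as the picked one, a share that is no comparison for a picked peak.

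**Figure D3:**
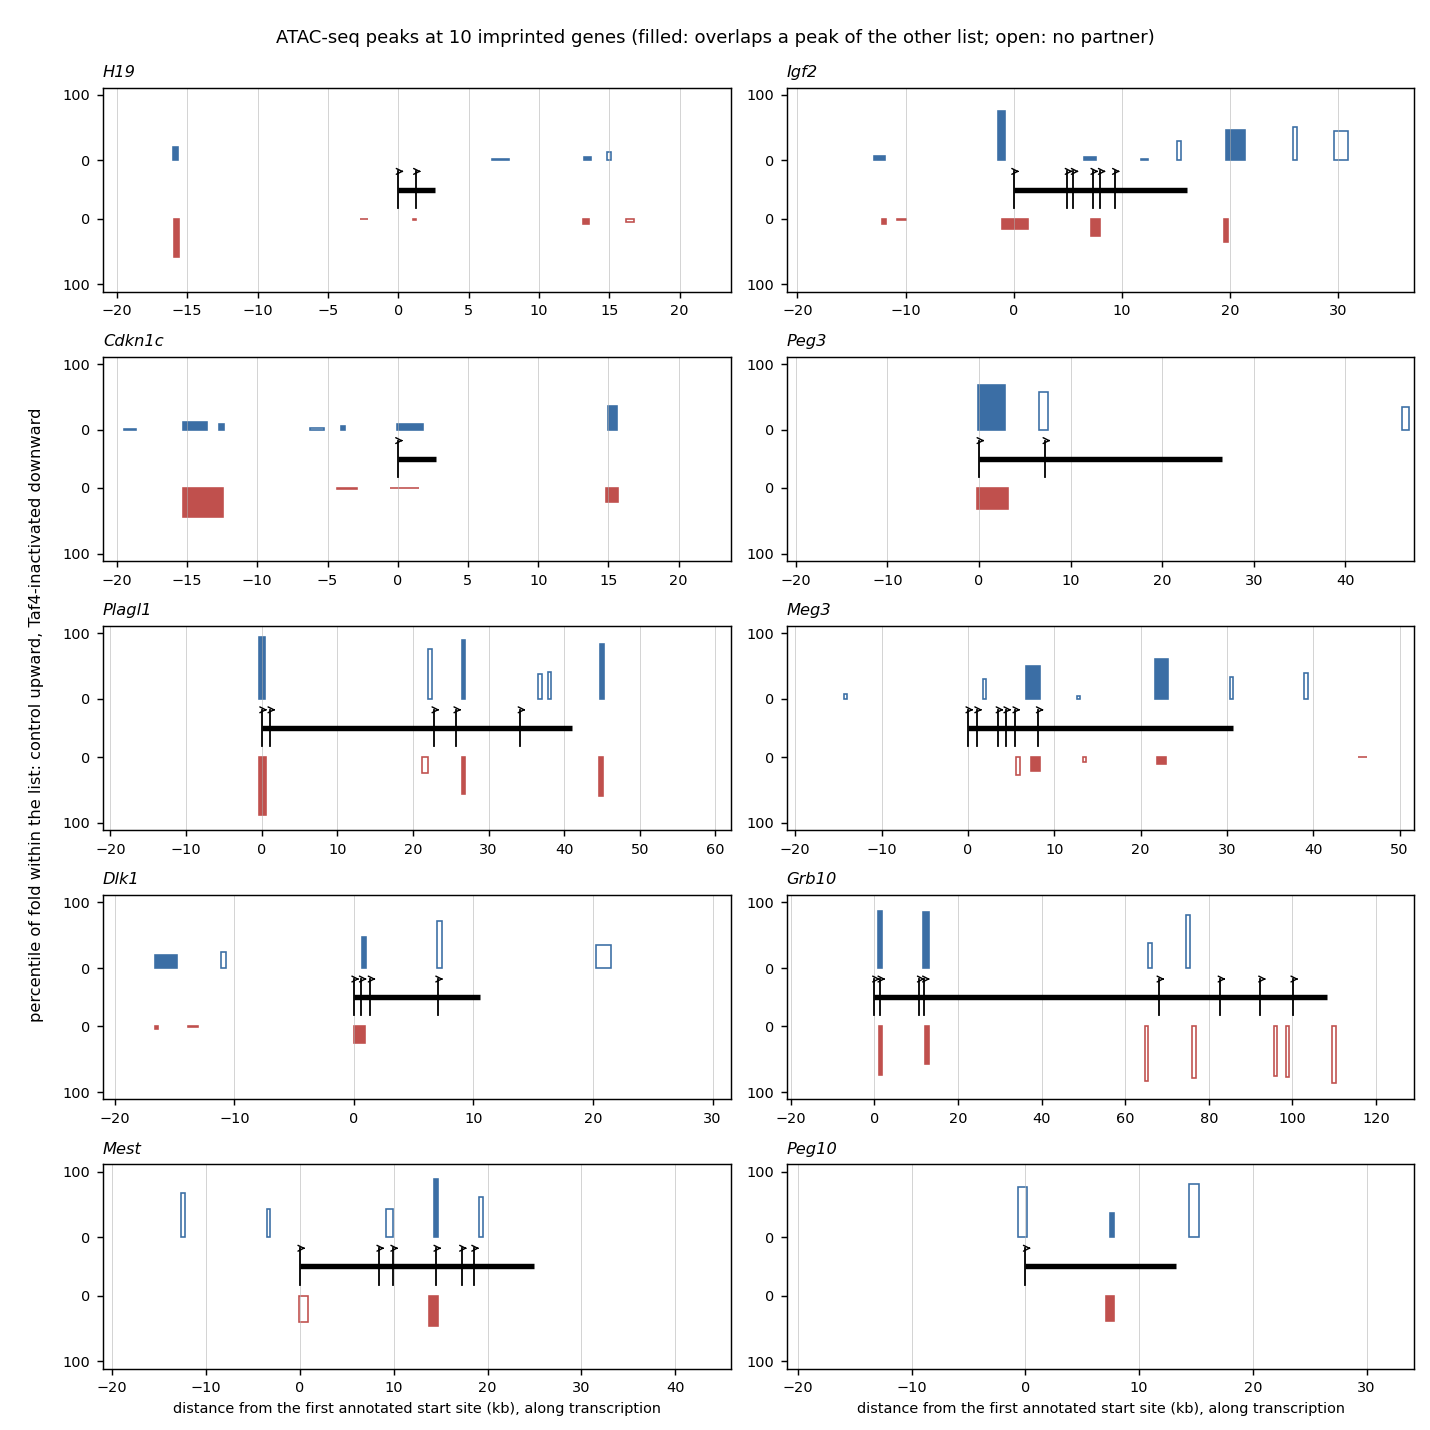
Peaks of the control list (blue, upward) and the Taf4-inactivated list (red, downward) at the 10 imprinted genes against the distance in kb from the first annotated start site along transcription; bar height is the percentile of fold within the list, filled bars overlap a peak of the other list, open bars do not, the black line is the gene and arrows are promoters. The open red bars within and beyond Grb10, at percentiles of 74.8 to 85.7, and the single open blue bar at the start of Peg10, at 77.2, are visible.

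Peg3 encodes a zinc finger protein of paternal expression, and its promoter region is the control region of its domain. In both lists a single broad peak ran from the promoter into the first intron, 2896 bp wide at percentile 67.3 in the control (chr7:6680333-6683228) and 3317 bp wide at percentile 31.6 after inactivation (chr7:6679998-6683314). These were the widest of all members' peaks in each list, and the estimated pileup was 33.2 reads (22.9 to 46.6) and 23.1 reads (14.6 to 34.6). They held 10 and 12 YY1 sequences, of which 3 are shown above, where 32.2% and 30.6% of peaks of like width held at least 1. They also held 8 ZFP57 hexamers each. Internal promoter 2 had a peak in the control only (chr7:6675564-6676593, percentile 56.7). The single distal peak was in the control, in an intron of Zim1 (chr7:6636241-6636938, percentile 34.0), and had no partner.

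Plagl1 encodes a zinc finger transcription factor of paternal expression that restrains the cell cycle, and it was the member with the highest rank in both lists. The peak at promoters 1 and 2 stood at percentile 94.2 in the control (chr10:12810205-12810956) and 87.6 after inactivation (chr10:12810180-12811134), with an estimated 38.3 reads (27.2 to 52.5) and 33.6 reads (23.2 to 47.1). It was the only start-site peak of any member at or above percentile 90, in the control list, and none reached it after inactivation. It held 4 and 6 ZFP57 hexamers, where 16.6% and 26.6% of peaks of like width held at least 1. The internal peak near promoter 4 stood at 89.6 (chr10:12837020-12837340) and 55.4 (chr10:12837049-12837348). Near promoter 3 each list had a peak, at 76.4 (chr10:12832599-12832926) and 23.9 (chr10:12831726-12832454), but these did not overlap, and promoter 5 had none. A distal peak 10592 bp downstream of promoter 5 was in both lists at 83.7 (chr10:12855257-12855744) and 58.9 (chr10:12855250-12855543). The first promoter thus differed less in rank than the internal and downstream peaks.

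Mest encodes a protein of the hydrolase fold family and is expressed from the paternal copy. The peak at promoter 4, the CpG-rich main promoter, stood at percentile 89.3 in the control (chr6:30687849-30688318), with an estimated 36.5 reads (25.6 to 50.4). After inactivation it stood at 45.7 (chr6:30687327-30688293), with 23.8 reads (15.2 to 35.5). The control peak held 5 ZFP57 hexamers in 470 bp and the other 8 in 967 bp, where 9.74% and 27.1% of peaks of like width held at least 1. The alternative promoters differed in presence. A peak near promoters 2 and 3 (chr6:30682681-30683441, percentile 42.6) and one near promoter 6 (chr6:30692699-30692950, percentile 61.1) were in the control only. A peak at promoter 1 was in the Taf4-inactivated list only (chr6:30673434-30674375, percentile 40.8), and promoter 5 had none. Both distal peaks of Mest were in the control only, the stronger at percentile 67.5 (chr6:30660970-30661200).

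Peg10, a gene derived from a retrotransposon and expressed from the paternal copy, was the only member that had a start-site peak in the control and none after inactivation. The control peak (chr6:4696643-4697460) lay over the start sites of Peg10 and of the divergently transcribed neighbour Sgce, at percentile 77.2, with an estimated 29.4 reads (19.8 to 42.1) over a background of 12.5. It held 1 ZFP57 hexamer, shown above, where 18.3% of peaks of like width held at least 1. Of the 1664 genes in the same control decile, 9.80% had no start-site peak after inactivation. A distal control peak downstream of the gene (chr6:4711654-4712558, percentile 81.4) also had no partner. A peak over a coding exon of Peg10 was in both lists at percentile 36.5 (chr6:4704701-4705081) and 39.3 (chr6:4704357-4705125). The gene body peak thus kept a similar rank while the promoter peak was listed only in the deeper library.

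Away from the start sites, the members held 34 distal peaks in the control, of which 22 (64.7%, exact Clopper-Pearson 95% interval 46.5 to 80.3) had no partner, against 53.2% of all distal peaks. After inactivation 11 of 22 (50%, 28.2 to 71.8) had none, against 40.4% of all. Each interval contained the share over all distal peaks. The intervals treat the peaks as independent, although they cluster at 10 genes. The shares were also not matched for rank. In the control list, 65.7% of peaks in the lowest decile of fold had no partner, against 2.38% in the highest. The members' distal peaks were of low rank, with a median percentile of 33.4 in the control and 16.1 after inactivation, against 46.1 and 48.4 over all genes. None reached percentile 90 in either list. At or above percentile 75 there were 3 in the control, of which 2 had no partner (one each at Grb10 and Peg10), against 19.2% of all such peaks, and 4 after inactivation, of which 4 had no partner, against 15.6%. All 4 belonged to Grb10. Without Grb10, 20 of 32 control and 6 of 17 Taf4-inactivated distal peaks had no partner. Of the distal peaks, 8 in the control and 4 after inactivation lay at start sites of other genes.

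**Figure D4:**
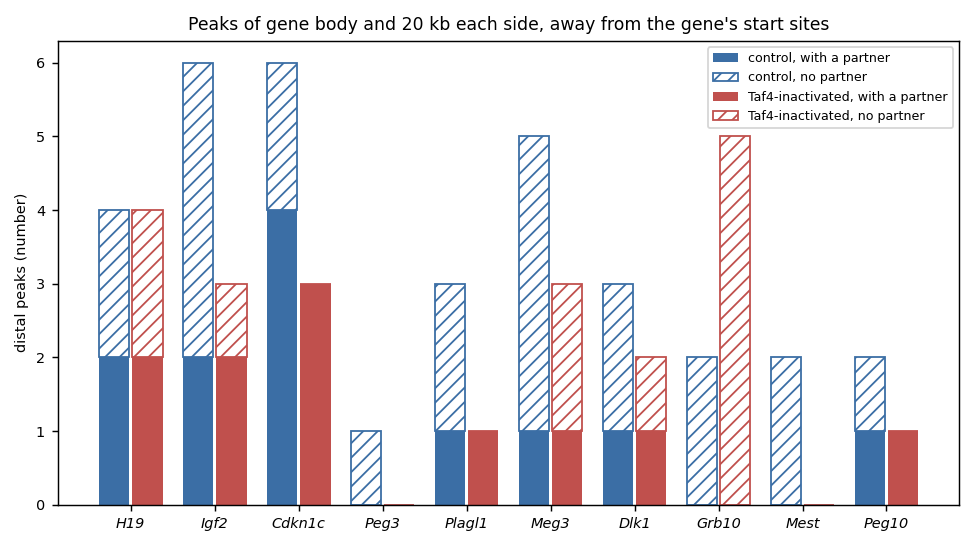
Number of distal peaks (vertical axis) of each imprinted gene in the control (blue) and the Taf4-inactivated list (red), 1 library each; filled parts overlap a peak of the other list and hatched parts do not. Grb10 is the only gene with more distal peaks after inactivation (5 against 2), and none of its distal peaks has a partner.

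The annotated promoters were next compared by sequence. Of the 41 promoters, 16 of 8 genes had a peak in both lists, 9 of 7 genes in the control only, 3 in the Taf4-inactivated list only and 13 of 6 genes in neither. The CpG ratio, observed over expected CpG in the 501 bp around the start site, had a median of 0.70 in promoters with a peak in both lists, 0.50 in control-only, 0.45 in Taf4-inactivated-only and 0.21 in promoters with no peak. A ratio of at least 0.6 was found at 13 promoters, against 29.9% of all promoters. Of these 13, 9 had a peak in both lists, 3 in the control only (Peg10, promoter 3 of Igf2 and promoter 4 of Dlk1), 1 after inactivation only (promoter 5 of Meg3) and 0 in neither. Promoters without CpG-rich sequence were present in each class, among them promoter 1 of Igf2, with a ratio of 0.061. Adjacent promoters share peaks and sequence, so these counts are not independent. The same classes are not given here for all promoters. These counts and medians are therefore not shown to be particular to the imprinted genes.

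**Figure D5:**
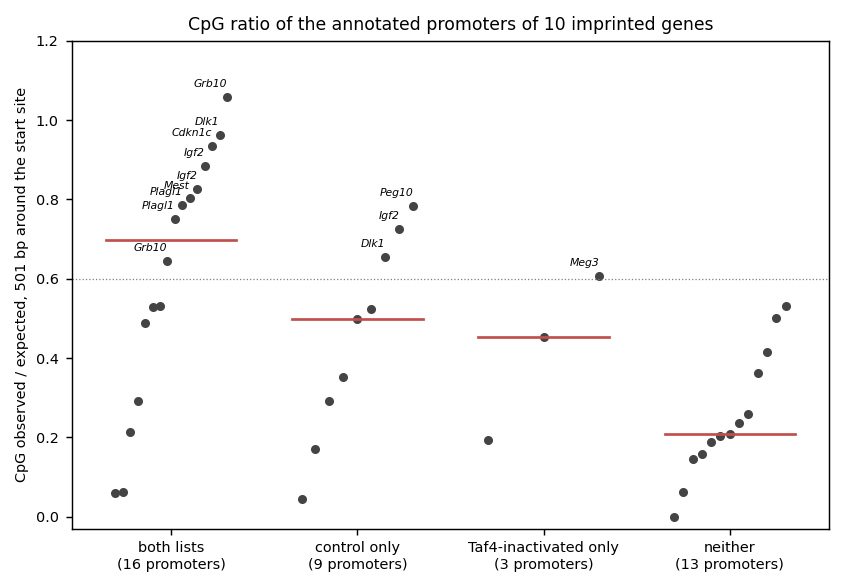
Observed over expected CpG in the 501 bp around each of the 41 annotated promoters (vertical axis), grouped by the list in which a peak lay within 1 kb; each point is 1 promoter, red lines are medians, and the dotted line is a ratio of 0.6 above which points are named. The medians are 0.70, 0.50, 0.45 and 0.21 from left to right, and no promoter without a peak lies above 0.6.

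Recognition sequences were counted in all peaks of the members on both strands. The ZFP57 hexamer TGCCGC lay in 18 of 52 control peaks and 12 of 37 Taf4-inactivated peaks, where 16.7% and 20.8% of peaks of like width held it. The CTCF core GGNGGCAG lay in 20 and 15 peaks, where 29.8% and 31.6% of peaks of like width held it. The YY1 sequence GCCATNTT lay in 5 and 3 peaks (11.3% and 11.8% of peaks of like width), AP-1 TGACTCA in 7 and 8 (14.2% and 17.9%), the GATA sequence AGATAA in 11 and 7 (20.5% and 24.8%) and HNF4 CAAAGTCCA in 0 and 2 (1.61% and 2.73%). The hexamer contains a CpG, and CpG content differs between peaks of like width, so its share was not compared by a test. Peaks present in both lists were counted in each. For the single peaks above, the share of like-width peaks with at least 1 match does not tell whether several matches are many.

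Among other imprinted genes, fewer had a start-site peak listed after inactivation than in the control, and their ranks differed in both directions. Of 52 annotated genes on a list of 55 others, 46 had a start-site peak in the control and 37 after inactivation, against 65.2% and 62.2% of all genes, and all 37 were among the 46. Among peaks with −log10 q of at least 5 the order turned, with 12 genes in the control and 18 after inactivation. The shares of all genes at that limit are not given here. A control peak only was found at 9 genes, against 6.17% of all genes. The 9 genes with a control peak only were Slc22a2, Ndn, Nnat, Sgce, Mirg, Rtl1, Begain, Rasgrf1 and Kcnk9, at control percentiles from 4.52 at Begain to 77.2 at Sgce, whose peak is that of Peg10. No gene had a peak after inactivation only. Of the 37, 24 were of lower rank by fold after inactivation, close to the 65.9% of all genes, with a median of −4.92 points. A difference of at least 20 points was found downward at 7 genes, against 12.8% of all genes, namely Magel2 (−46.6), Gnas (−37.5), Nespas (−37.0), Ppp1r9a (−36.9), Zdbf2 (−31.8), Blcap (−25.3) and Slc38a4 (−22.3). It was found upward at 6, against 7.89% of all genes, namely Tssc4 (39.3), Slc22a18 (32.7), Mcts2 (30.3), Kcnq1 (27.2), Ddc (25.01) and Igf2as (20.8). Ranked by p, 7 genes were lower and 2, Mcts2 and Ddc, were higher by at least 20 points. Of the upward genes by fold, Tssc4, Slc22a18 and Kcnq1 belong to the Cdkn1c domain on chromosome 7, and the Igf2as peak is the internal Igf2 peak.

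Genes that set, keep or remove imprints or DNA methylation, Tet1, Tet2 and Tet3 among them, were also examined. They had start-site peaks in 16 of 18 cases in each list, against 65.2% and 62.2% of all genes, and 15 had one in both. Dnmt3l, a cofactor of de novo DNA methylation, had a weak peak in the control only (percentile 2.77). Setdb1, a histone H3 lysine methyltransferase, had one after inactivation only (percentile 85.4), and Zfp445 had none in either list. Whether these missing peaks reflect rows left out of the lists was not tested. The median rank difference of the 15 was −6.01 points, and only Ctcfl, a germline paralogue of Ctcf, was lower by at least 20 points (−41.3), a size found at 12.8% of all genes. By p, Dnmt3a, a de novo DNA methyltransferase, was higher by 43.2 points. Zfp57 itself stood at percentile 77.2 in the control and 62.4 after inactivation. A peak at a start site does not measure the expression of these genes.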

How the data were processed

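Peak lists of 1 control and 1 Taf4-inactivated ATAC-seq library were analysed, grouped by the genotype label. The authors aligned reads to mm9 with Bowtie (1.0.0), retained uniquely mapped reads, and called broad peaks per library with MACS2 (2.1.1) using extended reads and no model. bcl2fastq (2.17.1.14) is named in the submitters' processing notes. How duplicate and mitochondrial reads were handled is not given in the sources used here. The deposited score was 10 times the −log10 q, truncated. The deposited fold is a ratio to the library's own background, and the deposited −log10 p and −log10 q are averages over a peak. The lists hold no read counts, so depth was estimated from fold and p.

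Promoters were taken from the GENCODE annotation of NCBIM37. A percentile is the share of peaks of the list with a lower value, with ties shared equally. Recognition sequences were compared with peaks within 20% of the same width. The named peaks were every start-site peak, the strongest distal peak per gene and list, and distal peaks without a partner at or above percentile 75. Other peaks and list genes were named where a count of 5 or fewer fell outside this rule, after their values were seen. The genes and lists were chosen with earlier results of these data known. Kcnq1ot1, Zim3 and Peg13 were not matched to the annotation and were not analysed here. Python 3.11.15, pandas 2.3.3 and scipy 1.17.1 were used. Scripts were tested on simulated peaks.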

Additional observations from a re-analysis of the deposited data

How the results depend on the processing

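No paired analysis was possible because each genotype had a single library, and leaving one out was equally impossible. Of the values other than the rank differences of single genes, 75 stayed alike, 29 moved and 1 reversed under the alternatives. Each was set against its own main value, so a turned order between the lists was not counted as reversed. Counts could change by a set factor and still be called alike, as did control promoters with a peak (25 to 17). The number of members compared, always 8, was included.

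With −log10 q of at least 5, 1 member had a start-site peak in the control and 1 after inactivation (1 in both), 2 and 2 promoters had peaks, distal peaks numbered 0 and 3 with 100% of the Taf4-inactivated ones lacking a partner, and 12 and 18 of the other imprinted genes had a start-site peak, against 46 and 37 without this limit, so the order turned. At −log10 q of at least 2, distal peaks numbered 15 and 10. Shares of all genes and of all distal peaks under these limits are not given here, so the counts are not shown to be particular to imprinted genes. Flanks of 10 kb gave 20 and 12 distal peaks, and 50 kb gave 72 and 53. When partners had to share 50% of each peak, 82.4% and 72.7% of the members' distal peaks had none. The share of all distal peaks by that rule is not given here. In the central 500 bp of peaks, CTCF was in 12 control peaks, AP-1 in 4 and 5, HNF4 in 1 Taf4-inactivated peak, and the median CpG ratio after inactivation was 0.207. With a start-site distance of 500 bp, 16 promoters had a control peak and the median rank difference was −18.2 points. It was −24.5 with transcripts of the gene's biotype only, −31.3 by −log10 p, −25.1 for the pair of longest overlap and 8.38 by width, by which 2 members were lower.

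Igf2 reversed to 20.8 points at 500 bp and for the pair of longest overlap, and to 14.7 by width. By width Cdkn1c (2.05), Peg3 (0.302), Plagl1 (16.4), Dlk1 (41.8) and Mest (38.1) also reversed. The causes were not tested. With 1.65 times fewer reads after inactivation, a missing weak peak there was not shown to be closed chromatin.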
